A study of Rattus norvegicus with 12 samples.

Results

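Antigen presentation genes were described by 4 members in rat hippocampus: B2m (ENSRNOG00000017123), Cd74 (ENSRNOG00000018735), RT1-Da (ENSRNOG00000032844) and RT1-Ba (ENSRNOG00000000451). They were chosen by name and not by a cut on their values, though with earlier results of these data known. They are 4 of the 28959 rows of the deposited table. B2m encodes beta-2 microglobulin, the light chain that MHC class I heavy chains need to reach the cell surface. Cd74 encodes the invariant chain, which escorts MHC class II molecules and blocks their groove until a peptide is loaded. RT1-Da and RT1-Ba encode alpha chains of the rat class II molecules RT1-D and RT1-B, where RT1 is the rat MHC. Class I molecules show peptides from inside the cell and are made by most cells. Class II molecules show peptides taken up from outside, and in the brain they are known mainly from microglia and from macrophages and dendritic cells at its borders. The RT1 genes differ between strains and, in an outbred stock such as Sprague Dawley, between rats.

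RNA sequencing was done on the hippocampus of Sprague Dawley rats with a stated age of 6 to 7 weeks, with 3 libraries in each of 4 groups. The Ctrl-Sal group was unstressed and received saline. The other groups went through 5 weeks of chronic unpredictable mild stress (CUMS), in which varied mild stressors follow each other to model depression, and in its last 7 days CUMS-Sal received saline, CUMS-Flx fluoxetine and CUMS-Alb albiflorin. The stated age is not tied to the start or the end of the stress. Fluoxetine, which blocks serotonin reuptake, was given at 10 mg/kg/d by the sample labels and 7 mg/kg/d by the series text, and albiflorin, a monoterpene glycoside of peony root, at 7 mg/kg/d. Whether each library stands for a rat of its own is not stated, so all p-values rest on a spread between libraries that may be technical. Values are FPKM, reads scaled by gene length and library size, and the reads behind them were recovered from their steps. The libraries held 14735953 to 18109623 reads. Ctrl-Sal replicate 2 stood apart: its median correlation with the other libraries over 15253 rows was 0.977, against 0.989 to 0.992 for the other 11. The 9 rows that each took over 1% of all reads held 17.4% to 22% of all reads for Ctrl-Sal libraries and 18.8% in CUMS-Flx replicate 1, against 14.6% to 15.6% in the other 8. No table used here pairs Ensembl IDs with symbols, so other genes of the pathway, markers of immune cells and markers of the hippocampus could not be looked up, and the labelled tissue was not checked against them.

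The stretches before the starts of the 4 genes are shown because class II genes and B2m are textbook examples of one promoter layout, an X box followed by a Y box. The 250 bases before each transcript start are given 5′ to 3′ from RefSeq (build GRCr8, while the submitters' notes name rn6), all on the plus strand. They lie at chr3:129549080-129549329 for B2m, chr18:56526956-56527205 for Cd74, chr20:4515165-4515414 for RT1-Da and chr20:4576807-4577056 for RT1-Ba. Capitals mark ATTGG, the core of the Y box (or CCAAT, the same letters on the other strand), and GCAAC, found in many X boxes (or GTTGC on the other strand).
B2m: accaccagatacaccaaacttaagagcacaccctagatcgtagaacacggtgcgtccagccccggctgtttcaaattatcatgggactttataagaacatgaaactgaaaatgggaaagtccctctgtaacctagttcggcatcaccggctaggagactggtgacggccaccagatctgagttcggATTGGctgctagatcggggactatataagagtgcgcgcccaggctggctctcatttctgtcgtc
Cd74: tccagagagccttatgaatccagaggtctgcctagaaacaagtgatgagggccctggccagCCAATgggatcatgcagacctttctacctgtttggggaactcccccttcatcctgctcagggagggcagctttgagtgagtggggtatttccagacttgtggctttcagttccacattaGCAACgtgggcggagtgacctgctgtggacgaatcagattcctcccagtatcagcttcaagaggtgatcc
RT1-Da: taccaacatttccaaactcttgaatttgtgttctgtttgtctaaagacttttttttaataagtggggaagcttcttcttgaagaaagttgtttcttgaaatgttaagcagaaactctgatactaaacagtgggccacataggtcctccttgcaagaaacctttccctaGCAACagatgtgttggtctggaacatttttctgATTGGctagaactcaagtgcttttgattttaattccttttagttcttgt
RT1-Ba: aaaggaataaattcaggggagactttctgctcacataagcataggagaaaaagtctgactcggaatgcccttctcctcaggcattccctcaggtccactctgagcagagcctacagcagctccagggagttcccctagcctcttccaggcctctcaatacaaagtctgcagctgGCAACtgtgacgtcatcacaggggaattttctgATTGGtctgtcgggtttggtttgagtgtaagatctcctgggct

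ATTGG began 64 bases before the start in B2m, 49 in RT1-Da and 43 in RT1-Ba, while Cd74 had only CCAAT, at 189. Of 33469 promoters of the same length, 34.0% held ATTGG or CCAAT and 29.5% held GCAAC or GTTGC. The X box letters were added to the search after these sequences were seen. GCAAC began 70 bases before the start in Cd74, 82 in RT1-Da and 76 in RT1-Ba, and neither GCAAC nor GTTGC was in the B2m window. RT1-Da and RT1-Ba shared the order GCAAC then ATTGG, with 33 bases from the first base of one to the first base of the other. That order was found in 1.66% of the promoters, and the order with that spacing in 9 of them, these 2 included. These matches describe letters in a window and were not tested for binding or use.

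The 4 genes lay far apart in level, and in the same order in every library. Over the 12 libraries B2m had a mean of 191 FPKM, with 297 of the 22737 rows with any reads above it. Cd74 had a mean of 3.36 FPKM, RT1-Da 0.641 and RT1-Ba 0.0741. Per length, B2m was thus 57.0-fold above Cd74, and Cd74 was 5.24-fold above RT1-Da. RT1-Ba was the lowest in 12 of 12 libraries, at too few reads for a fold. The class I light chain therefore rested on 4755 to 8360 reads per library, the invariant chain on 31 to 70, RT1-Da on 5 to 18 and RT1-Ba on 0 to 4.

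**Figure D1:**
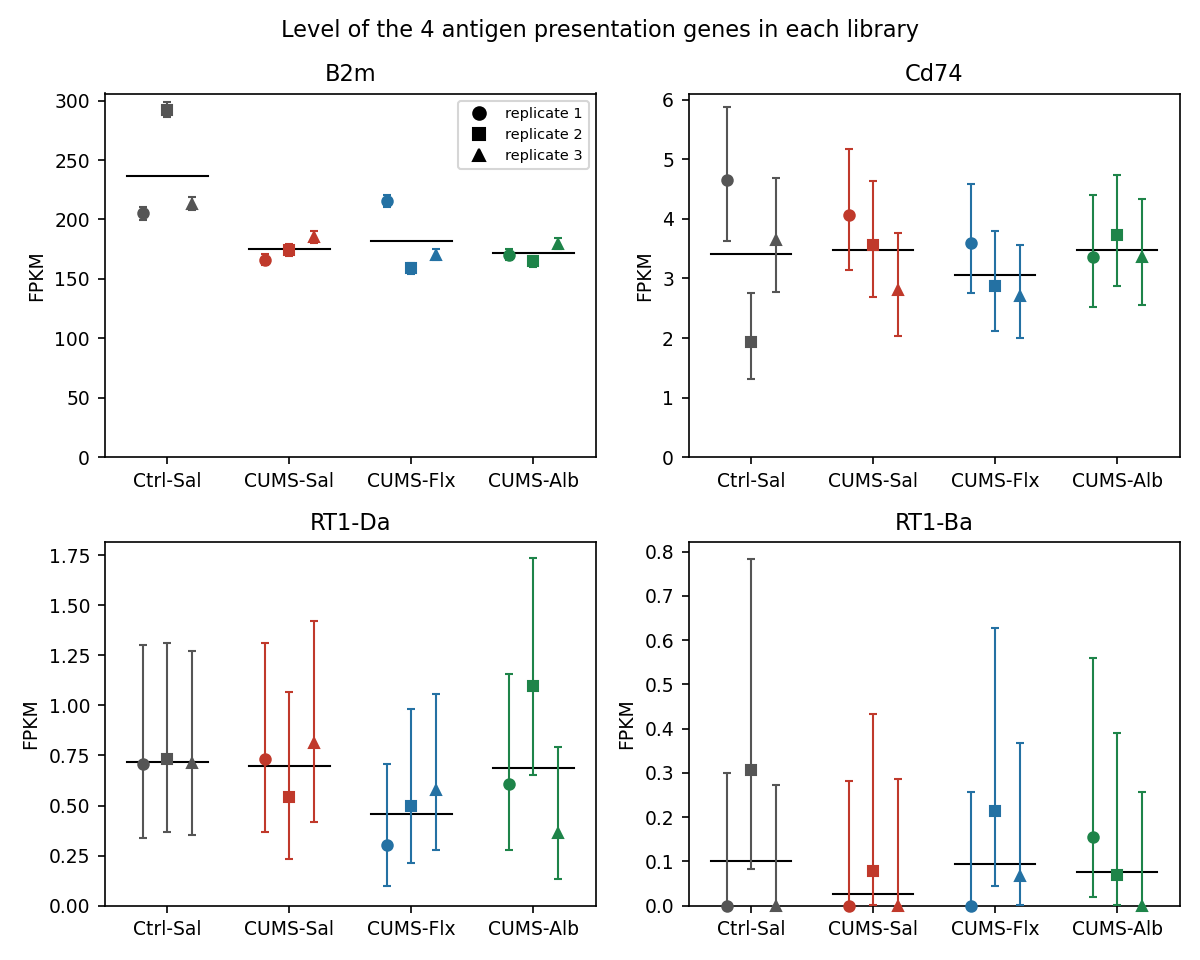
FPKM (y axis, linear, from 0, a separate scale per gene) of B2m, Cd74, RT1-Da and RT1-Ba in each of the 12 libraries, by group (x axis); symbols mark replicates, bars are exact 95% Poisson intervals of the recovered reads, which cover counting error only, and horizontal lines are group means. B2m runs from 159 to 292 FPKM, and the intervals of RT1-Da and RT1-Ba are wide beside the differences between groups.

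B2m, the one abundant member, had its highest values in unstressed rats. It stood at 205, 292 and 213 FPKM in Ctrl-Sal replicates 1, 2 and 3. In CUMS-Sal the values were 166, 174 and 185 FPKM. In CUMS-Flx they were 215, 159 and 170.5 FPKM, and in CUMS-Alb 170.3, 165 and 179 FPKM. All CUMS-Sal and CUMS-Alb libraries lay below all Ctrl-Sal libraries, whereas CUMS-Flx replicate 1 lay among the Ctrl-Sal values. The group means were 237 ± 48.2 FPKM in Ctrl-Sal, 182 ± 29.9 in CUMS-Flx, 175 ± 9.59 in CUMS-Sal and 172 ± 7.38 in CUMS-Alb (SD, n = 3). The libraries of the last 3 of these groups overlapped each other. In bulk tissue, fewer cells of a type and less RNA per cell cannot be told apart.

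Differences were tested with limma on log2(FPKM + 0.5) over the 15253 rows whose mean reached 0.5 FPKM, with Benjamini-Hochberg adjustment over all of them, and called at an adjusted p under 0.05. B2m, Cd74 and RT1-Da passed the filter and RT1-Ba did not. Stress alone is addressed by CUMS-Sal against Ctrl-Sal, where limma called 0 of the 3 tested members and 9.19% of all rows, 1228 of them higher and 174 lower in CUMS-Sal (364 and 379 once the median deviation of each library was set to 0). An unadjusted p under 0.05 was held by 1 of the 3, B2m, and by 30% of all rows. Its log2 difference was -0.42 (SE 0.13, 95% interval -0.70 to -0.13, adjusted p = 0.0606), a 0.749-fold level, with 3 of 3 CUMS-Sal libraries below the Ctrl-Sal ones. Of all rows, 5.85% lay wholly lower in CUMS-Sal in this way. The median difference of all tested rows was 0.10, and B2m stood at -0.52 on that centred scale (adjusted p = 0.0553).

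B2m lay near the threshold, and single choices put it on either side. Limma-voom on the recovered reads, which tested B2m and Cd74 but not RT1-Da, called B2m (log2 difference -0.52, adjusted p = 0.0482) and 6.97% of all its rows. It was also called when rows under a mean of 5 FPKM were left out (adjusted p = 0.0479), where limma called 1577 of 9272 rows. B2m was called as well without Ctrl-Sal replicate 1, Ctrl-Sal replicate 3 or CUMS-Flx replicate 1 (adjusted p = 0.0466, 0.0403 and 0.0446). Among all rows, 1294 of 15255, 2634 of 15261 and 1436 of 15262 were called there, beside 1402 of 15253 with all libraries. Without Ctrl-Sal replicate 2, the library that stood apart, the log2 difference was -0.26 (adjusted p = 0.169), with 370 of 15280 rows called. With only the 2 groups compared in the fit, the limma adjusted p was 0.144. Over all 22 alternatives the adjusted p ran from 0.0403 to 0.169 and the value stayed lower in CUMS-Sal. B2m was called in 5 of the 22, those given above, and not in the rest.

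For the drugs, the comparisons with CUMS-Sal ask whether treatment of stressed rats moved these genes. Limma called 0 of the 3 tested members in CUMS-Flx against CUMS-Sal and 0 in CUMS-Alb against CUMS-Sal, and 0% of all rows were called in either. No member had an unadjusted p under 0.05 there, against 9.98% of all rows with fluoxetine and 3.66% with albiflorin, and limma-voom called 0 of 2 members and 0% of rows. For B2m the log2 difference from CUMS-Sal was 0.04 in CUMS-Flx (95% interval -0.24 to 0.33, adjusted p = 0.937) and -0.03 in CUMS-Alb (95% interval -0.32 to 0.25, adjusted p = 1). These intervals leave room for levels of 0.844-fold to 1.25-fold with fluoxetine and 0.804-fold to 1.19-fold with albiflorin. Without CUMS-Flx replicate 1 the fluoxetine difference was -0.09. Between the drugs, CUMS-Alb against CUMS-Flx, 0 members were called by limma or limma-voom with 0.00656% and 0.00638% of rows called, and 0 had an unadjusted p under 0.05, against 4.98% of all rows. B2m differed there by -0.07 (95% interval -0.36 to 0.21).

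Treated stressed rats were also set against unstressed ones, in comparisons that share the Ctrl-Sal libraries with the one above. In CUMS-Alb against Ctrl-Sal 0 of 3 members were called by limma, with 2.5% of all rows (332 higher and 49 lower, and 10 and 18 on the centred scale), and 0 of 2 by limma-voom, with 3.16%. In CUMS-Flx against Ctrl-Sal 0 were called by either, with 0.0524% of rows called by limma and 0.427% by limma-voom. B2m was again the 1 member of 3 with an unadjusted p under 0.05 in each, beside 27.4% of all rows in CUMS-Alb and 17.5% in CUMS-Flx. Its log2 difference was -0.45 in CUMS-Alb (SE 0.13, adjusted p = 0.0644), where the libraries did not overlap and 6.37% of all rows lay wholly lower. In CUMS-Flx it was -0.38 (SE 0.13, adjusted p = 0.187), and the libraries overlapped. Without Ctrl-Sal replicate 2 these differences were -0.29 and -0.22. Without Ctrl-Sal replicate 3 B2m was called in CUMS-Alb, at -0.51 (adjusted p = 0.036), along with 2356 of all 15261 rows.

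**Figure D2:**
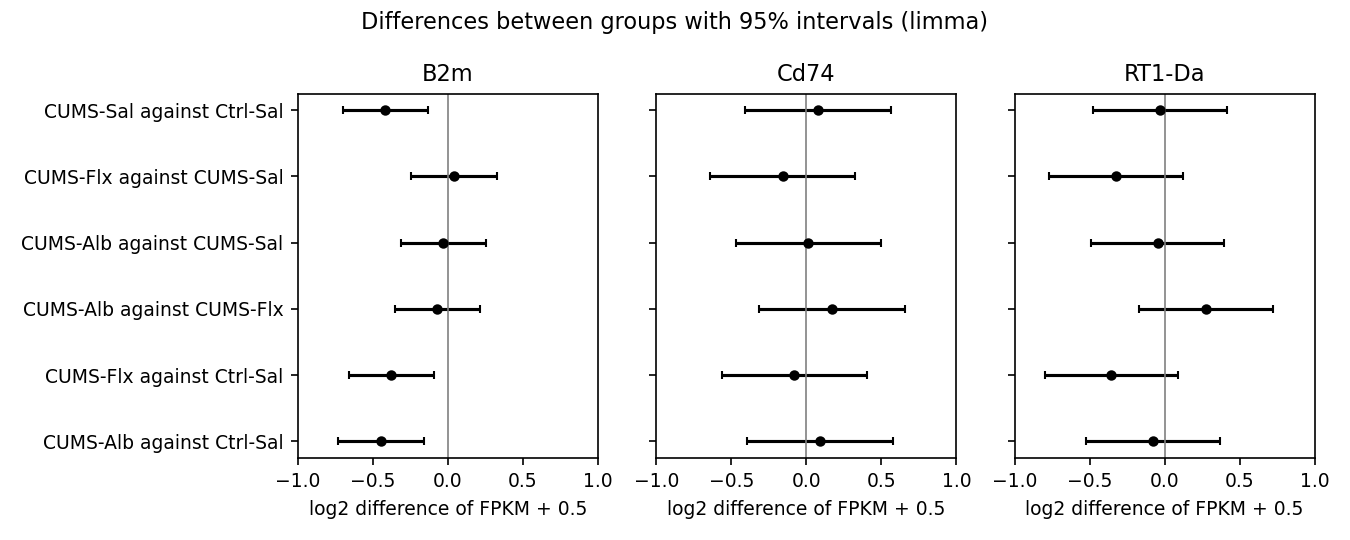
Log2 difference of FPKM + 0.5 (x axis) for B2m, Cd74 and RT1-Da in the 6 comparisons (y axis); points are limma estimates and bars 95% intervals, before any adjustment for the number of rows. The B2m intervals lie below 0 in the 3 comparisons with Ctrl-Sal, and the Cd74 and RT1-Da intervals include 0 in all 6.

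**Figure D3:**
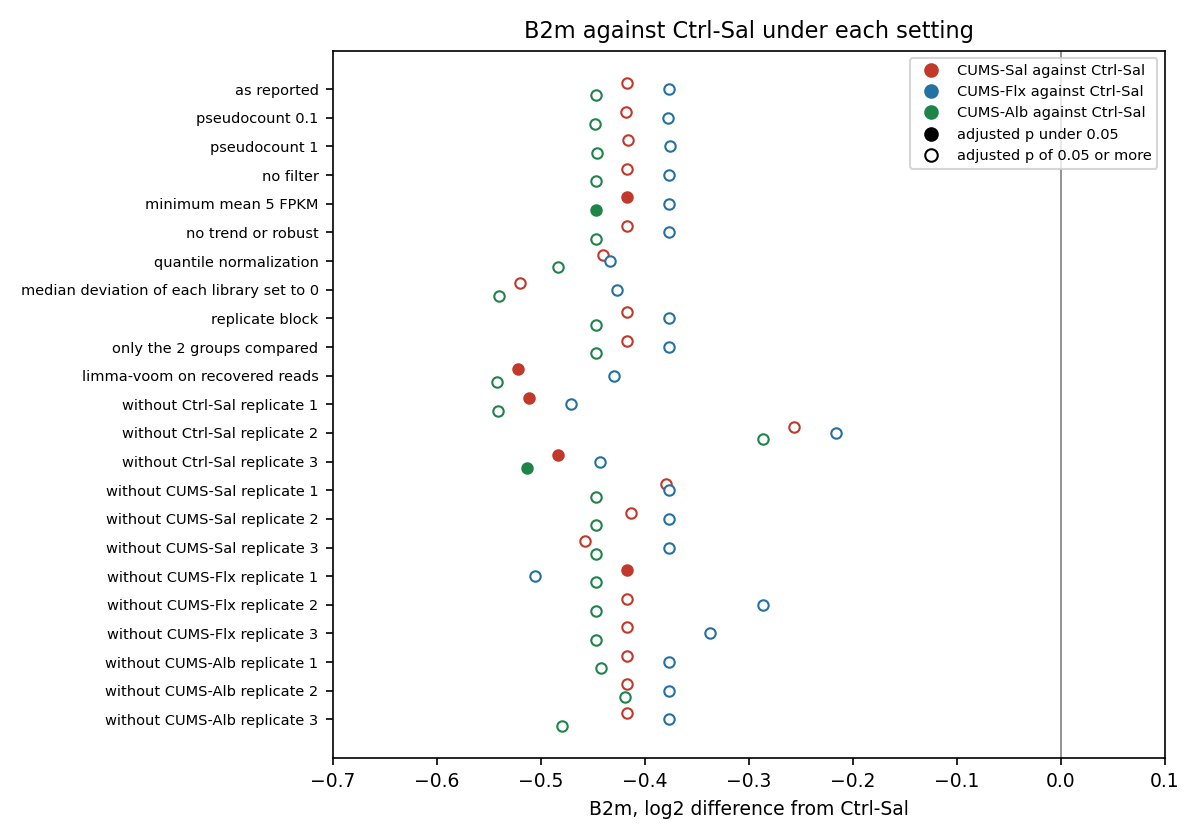
Log2 difference of B2m from Ctrl-Sal (x axis) for the CUMS groups with saline, fluoxetine and albiflorin under each setting (y axis); filled points have an adjusted p under 0.05. All points lie below 0, and in each comparison the one without Ctrl-Sal replicate 2 lies nearest to it, at -0.29 to -0.22.

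The libraries with high B2m were also those with the largest share of reads in the 9 most abundant rows. The 4 libraries with the largest such share, 17.4% to 22%, were Ctrl-Sal replicates 1, 2 and 3 and CUMS-Flx replicate 1, and they were the 4 with the highest B2m, at 205 to 292 FPKM. In the other 8 libraries the share was 14.6% to 15.6% and B2m 159 to 185 FPKM. Set against the reads of these 9 rows, B2m reads were 0.184%, 0.243% and 0.223% for Ctrl-Sal, and for CUMS-Sal they were 0.205%, 0.216% and 0.225%. For CUMS-Flx they were 0.209%, 0.187% and 0.204%, and for CUMS-Alb 0.213%, 0.201% and 0.21%. On that footing all 4 groups overlapped, with every CUMS library inside the range of Ctrl-Sal. The divisor itself differed, with a mean share of 19.95% of reads in Ctrl-Sal, 14.9% in CUMS-Sal, 16.5% in CUMS-Flx and 15.1% in CUMS-Alb. Dividing by it lowers Ctrl-Sal relative to the CUMS groups for any row, so the overlap cannot decide where the B2m difference came from. The log2 difference in CUMS-Sal against Ctrl-Sal was -0.42 by limma, -0.44 by quantile normalization, -0.52 on the centred scale and -0.52 by limma-voom. The part of the abundant rows in the B2m difference was not tested.

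**Figure D4:**
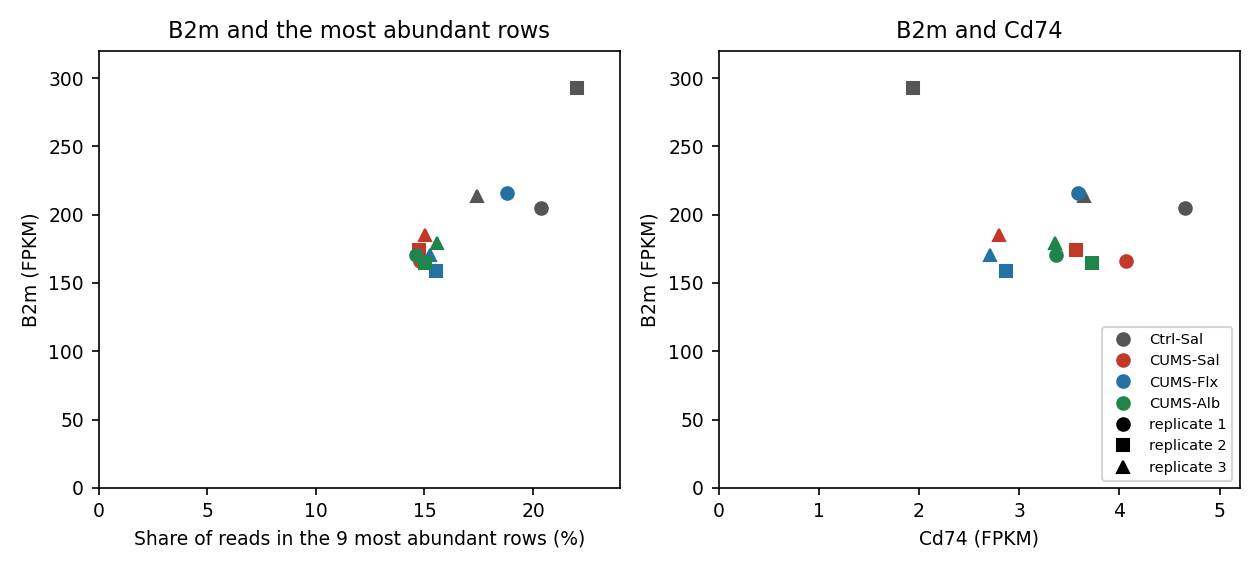
B2m in FPKM (y axes, from 0) against the share of reads in the 9 most abundant rows in percent (left) and against Cd74 in FPKM (right), 1 point per library, coloured by group, with symbols for replicates. On the left, the Ctrl-Sal libraries and CUMS-Flx replicate 1 lie at 17.4% to 22% and 205 to 292 FPKM, and on the right Ctrl-Sal replicate 2 has the highest B2m and the lowest Cd74.

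Cd74, the chaperone of class II, was low, with group means between 3.05 and 3.48 FPKM. Its values were 4.65, 1.94 and 3.64 FPKM in Ctrl-Sal, from 70, 31 and 60 reads. CUMS-Sal held 4.07, 3.57 and 2.80 FPKM, from 65, 56 and 44 reads. CUMS-Flx held 3.59, 2.87 and 2.70 FPKM and CUMS-Alb 3.37, 3.72 and 3.35 FPKM. Both the highest and the lowest value belonged to Ctrl-Sal, so every other group lay within its range. The means were 3.41 ± 1.37 FPKM in Ctrl-Sal, 3.48 ± 0.637 in CUMS-Sal, 3.05 ± 0.471 in CUMS-Flx and 3.48 ± 0.209 in CUMS-Alb (SD, n = 3), and the libraries of all groups overlapped.

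The limma estimate for Cd74 in CUMS-Sal against Ctrl-Sal was 0.08 (95% interval -0.41 to 0.56, adjusted p = 0.849), which leaves room for a 0.755-fold to 1.48-fold level. The estimate turned to -0.23 without Ctrl-Sal replicate 2 and was 0.31 without Ctrl-Sal replicate 1, neither called. It was -0.16 in CUMS-Flx (adjusted p = 0.839) and 0.01 in CUMS-Alb (adjusted p = 1) against CUMS-Sal, 0.17 between albiflorin and fluoxetine, and -0.08 and 0.09 in CUMS-Flx and CUMS-Alb against Ctrl-Sal. Without Ctrl-Sal replicate 2 the last 2 were -0.39 (adjusted p = 0.391 by limma) and -0.22.

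Mapped reads of the class II alpha chains were close to the limit of these libraries. How well the build used for mapping matches the RT1 genes of these rats was not tested. RT1-Da stood at 0.708, 0.733 and 0.711 FPKM in Ctrl-Sal, from 10, 11 and 11 reads. CUMS-Sal held 0.733, 0.542 and 0.813 FPKM, from 11, 8 and 12 reads. In CUMS-Flx it stood at 0.303, 0.499 and 0.576 FPKM, from 5, 8 and 10 reads. In CUMS-Alb the values were 0.608, 1.10 and 0.363 FPKM, from 9, 18 and 6 reads. CUMS-Flx lay wholly below Ctrl-Sal but overlapped CUMS-Sal and CUMS-Alb, and CUMS-Alb held both the highest value and one of the lowest. Of all rows, 5.75% lay wholly lower in CUMS-Flx than in Ctrl-Sal. The nearest libraries here, CUMS-Flx replicate 3 and Ctrl-Sal replicate 1, both had 10 reads of RT1-Da. Their FPKM differed only through their totals of 18109623 and 14735953 reads.

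With the reads of a group summed, RT1-Da came to 0.717 FPKM in Ctrl-Sal (32 reads, exact 95% Poisson interval 0.491 to 1.01), 0.696 in CUMS-Sal (31 reads, 0.473 to 0.988), 0.461 in CUMS-Flx (23 reads, 0.292 to 0.692) and 0.692 in CUMS-Alb (33 reads, 0.476 to 0.971). These intervals cover counting error only, and all 4 overlap. In CUMS-Flx against Ctrl-Sal the limma estimate on the log2(FPKM + 0.5) scale, which understates changes at such levels, was -0.35 (95% interval -0.80 to 0.09, adjusted p = 0.393). It was -0.58 with a pseudocount of 0.1 FPKM and -0.24 with 1 FPKM, not called in either. Against CUMS-Sal it was -0.32 (95% interval -0.77 to 0.12, adjusted p = 0.617), and it was -0.53 with a pseudocount of 0.1 FPKM, -0.22 with 1 FPKM and -0.20 without CUMS-Flx replicate 1. In the other 4 comparisons it ran from -0.08 to 0.27, with 0 called. Between albiflorin and fluoxetine the estimate of 0.27 was 0.04 without CUMS-Alb replicate 2, 0.15 without CUMS-Flx replicate 1 and 0.48 without CUMS-Alb replicate 3.

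RT1-Ba was at 0 reads in 6 of the 12 libraries. Ctrl-Sal held 0, 4 and 0 reads of it, CUMS-Sal 0, 1 and 0, CUMS-Flx 0, 3 and 1 and CUMS-Alb 2, 1 and 0, which makes 12 in all. Every group thus had at least 1 library with a read and at least 1 without. In a library at 0, a count of 0 allows up to 0.208 to 0.244 FPKM (3 reads, counting error only). The summed reads gave 0.103 FPKM in Ctrl-Sal (exact 95% Poisson interval 0.028 to 0.263), 0.0258 in CUMS-Sal (0.000652 to 0.144), 0.092 in CUMS-Flx (0.0251 to 0.235) and 0.0721 in CUMS-Alb (0.0149 to 0.211). No fold is given at these counts, and with so few reads a common factor in length and reads could be missed in the recovery. Tested without the filter, RT1-Ba had adjusted p-values of 0.673 to 1 in the 6 comparisons by limma.

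As a list, the 3 tested members had a median log2 difference of -0.03 in CUMS-Sal against Ctrl-Sal, beside 0.10 for all rows. It was -0.16 beside -0.05 in CUMS-Flx against CUMS-Sal, -0.03 beside -0.01 in CUMS-Alb against CUMS-Sal, and 0.17 beside 0.04 in CUMS-Alb against CUMS-Flx. Against Ctrl-Sal it was -0.35 beside 0.05 in CUMS-Flx and -0.08 beside 0.09 in CUMS-Alb. A median of 3 values is the value of a single gene. It was RT1-Da in all comparisons with Ctrl-Sal, B2m in CUMS-Alb against CUMS-Sal and Cd74 in the others. These medians therefore do not measure a shift of the pathway.

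B2m varied more between libraries of a group than most rows of its level, and so did Cd74 in part through 1 library. The SD within groups on the log2 scale was 0.19 for B2m, above that of 90.2% of the 797 rows nearest in level, whose median was 0.10. It was 0.32 for Cd74, above 89.8% of 1000 such rows (median 0.17), and 0.26 for RT1-Da, above 61.4% of 1000 (median 0.23). With Ctrl-Sal replicate 2 left out the SD was 0.13 for B2m, above 89.0% of those rows, and 0.19 for Cd74, above 66.5% (median 0.15). Without CUMS-Alb replicate 2 it was 0.18 for RT1-Da, above 30.9%. In reads, the variance within groups was 114 times counting noise for B2m, 3.00 times for Cd74, 1.99 times for RT1-Ba and 1.11 times for RT1-Da. At the same relative spread this ratio grows with the reads, so it does not rank the genes by spread. Over all libraries B2m had 67892 reads, Cd74 665, RT1-Da 119 and RT1-Ba 12. The variance was 51.8 times counting noise for B2m, 1.24 times for Cd74 and 1.14 times for RT1-Ba without Ctrl-Sal replicate 2, and for RT1-Da it was 0.463 times without CUMS-Alb replicate 2 and 0.63 times without CUMS-Alb replicate 3. Ctrl-Sal replicate 2 had the highest B2m, the lowest Cd74 and the most RT1-Ba reads of the 12 libraries.

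The ratio of Cd74 to B2m within a library does not depend on how libraries are scaled. Cd74 FPKM came to 2.27%, 0.664% and 1.71% of B2m FPKM in Ctrl-Sal and to 2.45%, 2.05% and 1.51% in CUMS-Sal. In CUMS-Flx the ratio was 1.67%, 1.81% and 1.59%, and in CUMS-Alb 1.98%, 2.26% and 1.87%. Ctrl-Sal replicate 2 was the lowest by far, and the groups overlapped except that CUMS-Alb lay wholly above CUMS-Flx. That separation was noticed after the values of all pairs of groups were seen and was not tested. How often other ratios or rows separate between these 2 groups was not computed, so it is not read as a result.

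Over the 12 libraries none of the 6 pairs of members had an adjusted p under 0.05. B2m and Cd74 gave Pearson's r = -0.416 (permutation p = 0.177, adjusted p = 0.531) and Spearman's rho = -0.119 (permutation p = 0.716, adjusted p = 0.939). Without Ctrl-Sal replicate 2 and CUMS-Flx replicate 1, the libraries farthest from the B2m median, r was 0.399. Without Ctrl-Sal replicate 2 alone it was 0.38 and without CUMS-Flx replicate 1 alone -0.464, so the sign rested on Ctrl-Sal replicate 2. Cd74 and RT1-Ba gave r = -0.701 (permutation p = 0.0114, adjusted p = 0.0682) and rho = -0.493 (permutation p = 0.106, adjusted p = 0.639). That relation rested on few libraries as well, at r = -0.351 without Ctrl-Sal replicates 1 and 2. Cd74 and RT1-Da, which work in the same pathway, gave r = 0.0182 (permutation p = 0.956, adjusted p = 0.961) and rho = 0.105 (permutation p = 0.75, adjusted p = 0.939), and r = 0.134 without Ctrl-Sal replicates 1 and 2. B2m and RT1-Ba gave r = 0.256 (permutation p = 0.419, adjusted p = 0.838) and rho = -0.291 (permutation p = 0.354, adjusted p = 0.939), and r turned to -0.646 without Ctrl-Sal replicate 2 and CUMS-Flx replicate 1. B2m and RT1-Da gave r = -0.0153 and rho = -0.028, and RT1-Da and RT1-Ba r = 0.0885 and rho = 0.0448, with an adjusted p of 0.961 for each r and 0.939 for each rho by permutation. Without the 2 libraries farthest from the median their r was 0.0832 and -0.0713. Taken on deviations from group means, r was -0.569 for B2m and Cd74, -0.316 for B2m and RT1-Da and 0.249 for B2m and RT1-Ba. It was -0.107 for Cd74 and RT1-Da, -0.706 for Cd74 and RT1-Ba (adjusted permutation p = 0.0551) and 0.193 for RT1-Da and RT1-Ba. These values keep Ctrl-Sal replicate 2. Relations with RT1-Da and RT1-Ba rest on 5 to 18 and 0 to 4 reads per library.

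The rows whose pattern over the 12 libraries was most like each member were picked by the highest Pearson's r of 15250 rows and are a description, with no test. For B2m, 39 rows had r over 0.9, and the nearest was ENSRNOG00000000164 (r = 0.964, rho = 0.86, mean 48.0 FPKM). With group means removed r was 0.93. It was 0.899 without Ctrl-Sal replicate 2, and then 1 row had r over 0.9. For Cd74 and RT1-Da 0 rows had r over 0.9, and 1 and 0 without that library. The nearest were ENSRNOG00000002664 for Cd74 (r = 0.871, rho = 0.811, mean 0.939 FPKM) and ENSRNOG00000051190 for RT1-Da (r = 0.821, rho = 0.755, mean 19.9 FPKM). The points share libraries and depth, and the IDs could not be paired with symbols.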

How the data were processed

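RNA from 12 hippocampal libraries was sequenced, in groups taken from the sample titles. Per the labels, RNA was extracted with TRIzol and 3 µg entered a standard Illumina library. TopHat2 and build rn6 are named in the submitters' processing notes; the counter, annotation release and strand setting are not stated in any source used here, so overlapping or antisense genes and reads shared between RT1 genes could not be set apart. The authors deposited a table of FPKM whose header names no unit, and the unit was read from the values.

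Whole reads were recovered as 1 length per row and 1 total per library, within 0.0001 of a read, for 22737 of 22737 rows above 0, by the shortest length that gave whole reads. Limma 3.58.1 (R 4.3.3; trend and robust settings) fitted log2(FPKM + 0.5) for rows whose mean reached 0.5 FPKM, all 12 libraries, 1 coefficient per group. Replicates of every pair differed by more than counting noise (2.17 to 6.55 times it), so none was counted as a copy. Relations used 100000 permutations, two-sided. The fit and the recovery were also run on simulated reads, drawn row by row with a common relative spread and no effect shared within a library. No simulated library stood apart, so that run does not show how the fit behaves on these data. Python 3.11.15, numpy 2.4.6, pandas 2.3.3, scipy 1.17.1 and matplotlib 3.10.9 were used.

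Alternatives were 2 pseudocounts, 2 filters, limma without trend and robust settings, 2 scalings, a replicate block, a fit of only the groups compared, limma-voom on reads with TMM factors, and leaving out each library; those for the relations, the spread and the likeness were chosen after seeing the data. The members and lists were chosen with earlier results of these data known. The rule for named genes took the 4 members, called genes of the lists, and for each member the 5 rows of highest r. The lists (MHC class I and II and their loading, other B2m partners, interferon response, cell type markers) held 185 symbols, of which none could be matched to a row, since 0 Ensembl IDs were paired with symbols. Rows without names are given by 1 ID per member.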

Additional observations from a re-analysis of the deposited data

How the results depend on the processing

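Counts of called members were 0 in all 6 comparisons and became 1, always B2m, in 2 of them. In CUMS-Sal against Ctrl-Sal the count was 1 with a minimum mean of 5 FPKM, beside 1577 of all 9272 rows. It was 1 by limma-voom on reads, beside 1093 of 15678 rows, and 0 to 1 without single libraries, beside 1 to 2634 rows. In CUMS-Alb against Ctrl-Sal it was 1 with a minimum mean of 5 FPKM, beside 996 of 9272 rows. There it was 0 to 1 without single libraries, beside 0 to 2356 rows. The minimum left 9272 rows to test. It barely moved the unadjusted limma p of B2m against Ctrl-Sal, from 0.00767 to 0.00764 in CUMS-Sal and 0.00498 to 0.00496 in CUMS-Alb. The adjusted p went from 0.0606 to 0.0479 and from 0.0644 to 0.0485, so the call changed in the adjustment. The cause of the other changes in count was not tested. B2m stayed below Ctrl-Sal in all 22 alternatives of each of the 3 comparisons.

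Signs turned only for values that were not called. Cd74 against Ctrl-Sal turned in CUMS-Sal, to -0.097 by quantile normalization, -0.025 with median deviations set to 0 and -0.0037 by limma-voom, and in CUMS-Alb, to -0.056 and -0.0024 by the first 2. Without single libraries, Cd74 ran from -0.23 to 0.31 in CUMS-Sal, -0.39 to 0.15 in CUMS-Flx and -0.22 to 0.32 in CUMS-Alb against Ctrl-Sal, and from -0.12 to 0.12 in CUMS-Alb against CUMS-Sal. B2m ran from -0.089 to 0.13 in CUMS-Flx and -0.067 to 0.011 in CUMS-Alb against CUMS-Sal, and from -0.16 to 0.059 in CUMS-Alb against CUMS-Flx. RT1-Da ran from -0.10 to 0.064 in CUMS-Sal and -0.32 to 0.13 in CUMS-Alb against Ctrl-Sal, and from -0.28 to 0.16 in CUMS-Alb against CUMS-Sal. The cause was not tested.

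For the relations, r of B2m and RT1-Da became 0.134 with median deviations set to 0, and r of Cd74 and RT1-Da -0.00906 there and -0.107 on deviations from group means. Without single libraries r ran from -0.575 to 0.38 for B2m and Cd74, -0.243 to 0.169 for B2m and RT1-Da, -0.66 to 0.467 for B2m and RT1-Ba, -0.108 to 0.191 for Cd74 and RT1-Da, -0.0609 to 0.202 for RT1-Da and RT1-Ba, and -0.799 to -0.42 for Cd74 and RT1-Ba, which was past the threshold only without CUMS-Sal replicate 3 (adjusted p = 0.0216).

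The replicate block, with the shared replicate number as a term, called 0 members in all 6 comparisons, with B2m at -0.42 in CUMS-Sal and -0.45 in CUMS-Alb against Ctrl-Sal (limma adjusted p = 0.0916 and 0.0956). Same-numbered libraries did not deviate together (r of -0.159 to 0.127 over 18 pairs, 1 of them over 0.1), and 1 of 12 libraries correlated best with its own number. Over all rows, calls in CUMS-Sal against Ctrl-Sal went from 1402 to 565 with the block, 0 with only these groups in the fit, 1 without CUMS-Sal replicate 2 and 2634 without Ctrl-Sal replicate 3. In CUMS-Alb against Ctrl-Sal they went from 381 to 0 without CUMS-Sal replicate 1 and 2356 without Ctrl-Sal replicate 3, and in CUMS-Flx against Ctrl-Sal from 8 to 1 without Ctrl-Sal replicate 2 and 543 without Ctrl-Sal replicate 3. In the comparisons among stressed rats they stayed at 0 to 5. RT1-Da was not tested with a minimum mean of 5 FPKM or by limma-voom, nor Cd74 with that minimum, and RT1-Ba only without a filter. RT1-Da and RT1-Ba rest on 119 and 12 reads in all, and whether depth or the number of libraries limits their tests was not tested.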
